A study of Homo sapiens with 3 samples.

Results

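The genes described here are those of the hypoxia response and of glycolysis in Rh-30, an established line of alveolar rhabdomyosarcoma (ARMS) cells with the fusion gene PAX3-FOXO1. The list was drawn up by gene name and not by a limit on the values, with earlier results of these data known, and it holds 41 genes, 25 of glycolysis and 16 of the hypoxia-inducible factor (HIF) pathway. A probe set paired with that gene alone was found for 39 of them, out of 19775 genes named in this way on the array, whereas CA9 and SLC16A3 had none and their levels were not analysed here. Of the 39, 37 reached an intensity of 135 on at least 1 array, and PGAM2 and ALDOC stayed below it on all 3.

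All cells were Rh-30, grown in RPMI medium with 10% fetal bovine serum at 37 °C and 5% CO2, and the labels name no oxygen level and no hypoxic culture. They were transfected with 5 nM of a control siRNA (siCont), of an siRNA against the PAX3-FOXO1 fusion transcript (siPF) or of an siRNA against B7-H3, the product of CD276 (siB7-H3), and total RNA was taken after 24 hours. Only 1 siRNA per target was used. Each condition was read on 1 Affymetrix U133 Plus 2.0 microarray, so the error between replicates is unknown, conditions could not be tested against each other, and each difference below lies between 2 arrays. Both knockdowns were compared with the same siCont array, so a low or high siCont value moves both differences the same way. The values are intensities on a linear scale, and differences are given as log2 of the knockdown intensity over the siCont intensity. Since the array reads the whole culture, fewer cells with a transcript and less of it per cell cannot be told apart.

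In oxygenated cells the prolyl hydroxylases EGLN1 and EGLN3 mark the alpha subunits HIF1A and EPAS1, and VHL then directs them to degradation. In low oxygen the alpha subunits persist, pair with ARNT and bind the core motif ACGTG or GCGTG near their target genes, among them most genes of glycolysis. Glycolysis converts glucose to pyruvate in the cytosol, and lactate dehydrogenase converts the pyruvate to lactate, a route that many tumours and developing muscle use heavily even in oxygen. The degradation of HIF proceeds at the level of the protein, so the mRNA intensities given here do not measure HIF activity.

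The sequences below are the 250 bases before the annotated start of EPAS1, EGLN3, P4HA2 and PFKFB3, members with some of the larger differences, and of LDHA, shown as a glycolytic gene with a small difference. They are written 5′ to 3′ on the strand of the gene, from RefSeq on GRCh38.p14, with the HIF core motif (ACGTG or GCGTG on either strand) in capitals. PFKFB3 has 2 annotated starts in the table, and the LDHA window is that of the first of its 2.
EPAS1, chr2:46297157-46297406, plus strand: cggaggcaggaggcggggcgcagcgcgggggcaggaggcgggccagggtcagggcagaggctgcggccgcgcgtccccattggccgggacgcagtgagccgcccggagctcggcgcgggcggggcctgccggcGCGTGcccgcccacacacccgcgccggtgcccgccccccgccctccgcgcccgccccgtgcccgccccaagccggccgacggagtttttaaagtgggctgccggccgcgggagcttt
EGLN3, chr14:33951075-33951324, minus strand: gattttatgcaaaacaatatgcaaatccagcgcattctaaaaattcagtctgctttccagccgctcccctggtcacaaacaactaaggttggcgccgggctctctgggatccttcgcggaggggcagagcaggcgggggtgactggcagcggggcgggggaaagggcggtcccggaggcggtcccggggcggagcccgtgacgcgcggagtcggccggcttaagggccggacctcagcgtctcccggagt
P4HA2, chr5:132227092-132227341, minus strand: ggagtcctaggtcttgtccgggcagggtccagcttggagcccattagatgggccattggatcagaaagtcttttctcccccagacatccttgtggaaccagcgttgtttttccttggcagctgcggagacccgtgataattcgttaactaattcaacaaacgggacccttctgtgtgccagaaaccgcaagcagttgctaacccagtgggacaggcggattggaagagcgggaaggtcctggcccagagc
PFKFB3, chr10:6144671-6144920, plus strand: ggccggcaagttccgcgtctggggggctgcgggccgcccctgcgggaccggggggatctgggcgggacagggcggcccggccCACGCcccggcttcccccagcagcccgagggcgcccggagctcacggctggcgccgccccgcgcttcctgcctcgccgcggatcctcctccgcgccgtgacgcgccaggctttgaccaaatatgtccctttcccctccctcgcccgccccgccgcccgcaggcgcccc
PFKFB3, chr10:6202682-6202931, plus strand: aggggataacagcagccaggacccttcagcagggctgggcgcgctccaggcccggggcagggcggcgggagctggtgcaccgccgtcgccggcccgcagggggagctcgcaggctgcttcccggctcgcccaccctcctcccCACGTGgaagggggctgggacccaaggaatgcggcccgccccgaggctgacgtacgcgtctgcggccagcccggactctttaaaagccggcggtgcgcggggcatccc
LDHA, chr11:18394313-18394562, plus strand: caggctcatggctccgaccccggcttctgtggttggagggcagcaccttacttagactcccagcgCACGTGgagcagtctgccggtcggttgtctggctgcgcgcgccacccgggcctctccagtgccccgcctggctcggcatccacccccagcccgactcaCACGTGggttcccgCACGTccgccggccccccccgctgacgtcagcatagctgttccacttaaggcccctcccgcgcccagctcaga
Overlapping matches on both strands, as in CACGTG, were counted once. The LDHA window held 3 stretches with the core motif, EPAS1 1, each PFKFB3 window 1, and those of EGLN3 and P4HA2 0. Of 36 listed members with an annotated start, CA9 and SLC16A3 among them, 29 (80.6%) held the motif in at least 1 of their windows, beside 47.4% of all 27305 genes. Counted by window, 38 of 65 member windows (58.5%) held it, beside 43.2% of all 35116. The homeodomain core TAAT or ATTA, the kind of site that the PAX3 part of the fusion protein can bind, was in 32.3% of member windows and 47.4% of all windows. By gene it was in 36.1% of members and 52.7% of all genes. P4HA2 held 3 matches, and EPAS1, EGLN3 and both PFKFB3 windows 0. Matches were not particular to P4HA2. A window of PDK1 held 4, and windows of HIF1A, PFKM and LDHA, the LDHA one not shown here, held 3. A match of letters is a description and no evidence of binding.

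Of the target genes, CD276 was lower in siB7-H3 and FOXO1 was lower in siPF, with log2 differences of -2.04 and -1.45. PAX3 and CD276 differed by only -0.21 and -0.11 in siPF. CD276 had an intensity of 1486 with siCont, 1381 with siPF and 362 with siB7-H3, FOXO1 had 678, 249 and 650.0, and PAX3 had 381, 329 and 398. Probe sets of FOXO1 and PAX3 can also read the unfused genes. Of 9 skeletal muscle lineage markers 8 were measured and all 8 reached 135, whereas of 10 measured markers of leukocytes, epithelium, endothelium and erythroid cells only PECAM1 did. After trimming 2% of probe sets at each end, the mean intensity was 500.1 on all 3 arrays. The ratio of the 3′ to the 5′ control probe set of GAPDH was 0.907 with siCont, 0.941 with siPF and 0.925 with siB7-H3, and that of ACTB was 0.991, 0.963 and 1.02. Among genes of mean level 135 to 500 log2 differences scattered with an SD of 0.45 in siPF and 0.38 in siB7-H3, which narrowed to 0.23 and 0.19 among those of 8000 or more.

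The members were about as close to siCont as other genes of usable level. Of the 37 that reached 135, 31 (83.8%) lay within 0.5 of siCont in siPF and 34 (91.9%) in siB7-H3, beside 85.2% and 88.2% of the 10601 genes that reached it. The median log2 difference of the 24 measured glycolysis genes was 0.07 in siPF and 0.10 in siB7-H3, and that of the 15 measured HIF pathway genes was -0.03 and 0.16, beside 0.02 and 0.0045 over all genes, and the sign of the glycolysis median turned in both under quantile normalization. The HIF pathway medians also turned, to 0.19 and -0.0115, when every probe set of a gene was used. P4HA2 was the 1 member past 2-fold higher in siPF and PGAM2, a dim gene, the 1 past 2-fold lower, where 9.72% of all genes were higher and 9.39% lower. In siB7-H3 no member was past 2-fold higher and PGAM2 was past 2-fold lower, where 8.75% and 9.45% of all genes were. These shares are made up mostly of dim genes. Among the 10601 genes that reached 135 on any array, 1.4% were higher by over 2-fold and 1.16% lower in siPF, and 0.868% and 0.821% in siB7-H3, and of the 37 members that reached it 1 was higher in siPF and none was lower in siPF or past 2-fold in siB7-H3. At the lower limit of 0.5, 2 of the 37 were higher in siPF (HK1 and P4HA2), beside 8.2% of the 10601 genes, and 4 were lower (EPAS1, EGLN3, PFKFB3 and NDRG1), beside 6.61%. In siB7-H3, 1 was higher (P4HA2), beside 6.24%, and 2 were lower (ARNT and PFKFB3), beside 5.54%. The counts are small, and nothing particular to the members is read from them.

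**Figure D1:**
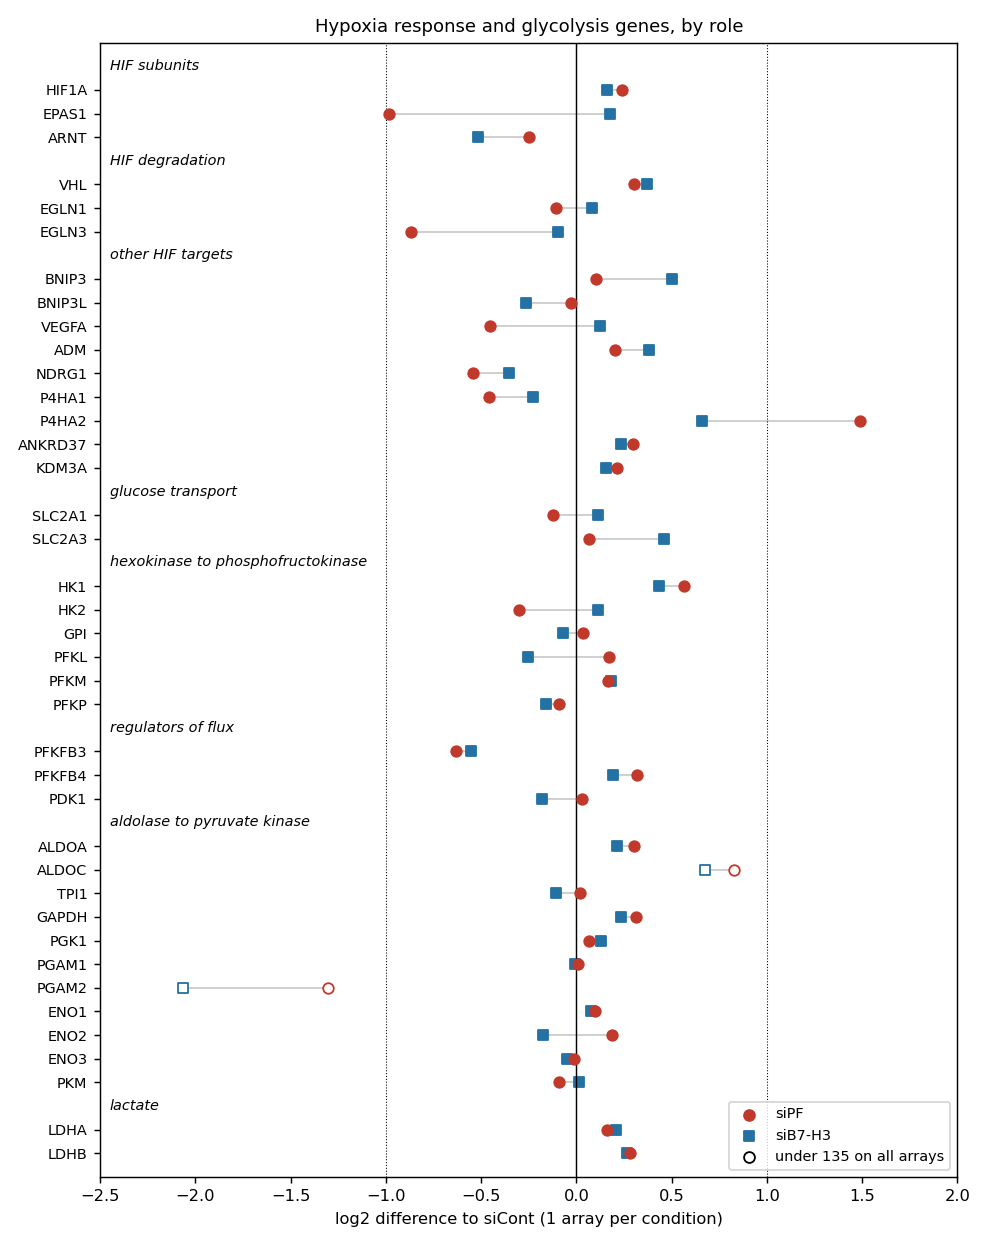
Log2 difference to siCont (horizontal axis) of the 39 measured members, grouped by role, in siPF (red circles) and siB7-H3 (blue squares), with 1 array per condition. Open symbols are PGAM2 and ALDOC, under 135 on all arrays, and dotted lines mark 2-fold. P4HA2 at 1.49 in siPF is the 1 filled symbol past 2-fold, and EPAS1 at -0.98 lies just inside.

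Among the HIF subunits, EPAS1 was lower in siPF, whereas HIF1A was not. EPAS1, which encodes HIF-2 alpha, had an intensity of 563 with siCont, 284 with siPF and 635 with siB7-H3. The siPF array was thus low and siB7-H3 was near siCont, with log2 differences of -0.98 in siPF and 0.17 in siB7-H3. After the arrays were centred on their medians or quantile normalized, the siPF difference was -1.01 or -1.02, just past 2-fold. The remaining EPAS1 probe sets were at 49.5 or less on all arrays and went both ways, with -2.14 and 4.15 in siPF, so EPAS1 had 1 reading that reached 135. HIF1A, the gene of HIF-1 alpha, had 15559, 18395 and 17376, and differences of 0.24 and 0.16. ARNT, the partner of both, had 772 with siCont, 649 with siPF and 539 with siB7-H3, and differences of -0.25 and -0.52. The lower siB7-H3 value of ARNT was not shared by all its probe sets. The 4 others that reached 135 gave -0.29, -0.16, 0.0061 and 0.27 in siB7-H3, and -0.20, -0.57, -0.30 and 0.16 in siPF.

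Of the genes that mark HIF for degradation, EGLN3 was lower in siPF. EGLN3 encodes a prolyl hydroxylase and is itself a known HIF target. It had 729 with siCont, 399 with siPF and 682 with siB7-H3, log2 differences of -0.87 and -0.10. Its other probe set gave 333, 208 and 322, log2 differences of -0.68 and -0.05, so at both readings the siPF array was low and the siB7-H3 array was near siCont. EGLN1, the main oxygen sensor of the family, had 1913, 1774 and 2022, and its differences of -0.11 and 0.08 lie well inside the spread between probe sets of 1 gene (pooled SD 0.27 in siPF and 0.26 in siB7-H3, over 5137 genes). VHL had 413, 510 and 535, and differences of 0.30 and 0.37, both upward. A dim VHL probe set gave 0.63 and -2.37.

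The targets of HIF outside glycolysis lay on both sides of siCont. Of the 9 measured, BNIP3, ADM, P4HA2, ANKRD37 and KDM3A were above siCont in both knockdowns, BNIP3L, NDRG1 and P4HA1 were below it in both, and VEGFA was below in siPF and above in siB7-H3. P4HA2 and P4HA1 encode catalytic subunits of collagen prolyl 4-hydroxylase, and at the probe sets used they went opposite ways. P4HA2 had 129 with siCont, 361 with siPF and 203 with siB7-H3, which is 2.81 and 1.58 times siCont and gave log2 differences of 1.49 and 0.66. It was under 135 in siCont and so met the level limit through the knockdown arrays, in which it was higher. Another P4HA2 probe set went from 45.9 to 171 and 81.4, differences of 1.90 and 0.83 in the same order of arrays. That probe set reached 135 in siPF alone, so it too met the limit only where it was high. A dim P4HA2 probe set went from 32.2 to 26.9 and 1.52, with no rise in siPF. P4HA1 had 2777, 2024 and 2369, differences of -0.46 and -0.23, and was lowest in siPF. A dim P4HA1 probe set had 4.42, 19.2 and 3.11, differences of 2.12 and -0.51, so it went up in siPF as P4HA2 did.

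NDRG1, a stress-responsive gene, had 1017 with siCont, 698 with siPF and 796 with siB7-H3, differences of -0.54 and -0.35, and was read by 1 probe set. VEGFA, the main angiogenic growth factor, had 2418, 1765 and 2638, so that siPF was low, with -0.45 against 0.13 in siB7-H3. Of its 3 other probe sets, 2 gave -0.41 in siPF and 1 gave -0.0020, and in siB7-H3 they ranged from -0.23 to 0.06. BNIP3 and BNIP3L encode related proteins of mitophagy and apoptosis. BNIP3 had 632, 679 and 894, with a difference of 0.50 in siB7-H3, a value that falls just short of the lower limit at 0.4997, and 0.10 in siPF. Its other probe set gave 0.36 and 0.28. BNIP3L had 4348, 4263 and 3619, with -0.26 in siB7-H3 and -0.03 in siPF, and its other probe set gave -0.32 and 0.05. In siB7-H3 BNIP3 and BNIP3L thus lay on opposite sides of siCont at both of their probe sets. ADM, which encodes a vasodilator peptide, ANKRD37 and the histone demethylase KDM3A had differences of 0.20 to 0.30 in siPF and 0.16 to 0.38 in siB7-H3.

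**Figure D2:**
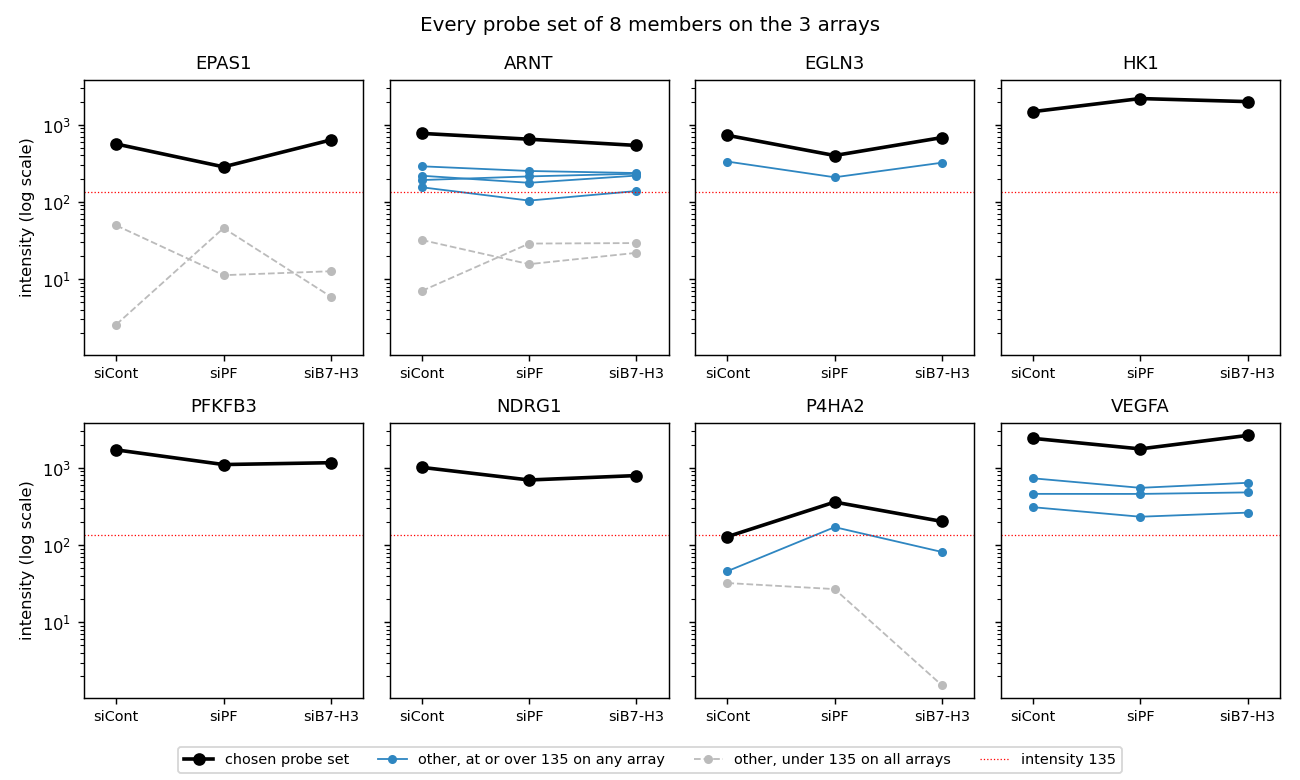
Intensity (vertical axis, log scale) of every probe set of EPAS1, ARNT, EGLN3, HK1, PFKFB3, NDRG1, P4HA2 and VEGFA on the siCont, siPF and siB7-H3 arrays. Black is the probe set used, blue the others that reach 135 on any array, and grey dashed those that do not, and the dotted line marks 135. The siPF dip of EGLN3 appears at both of its probe sets. The siPF peak of P4HA2 appears at 2 probe sets, which reach 135 only on knockdown arrays, and not at its dim one. The dim probe sets of EPAS1 go opposite ways.

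The entry steps of glycolysis held HK1 and PFKFB3, which in siPF had the largest differences among the glycolysis genes that reached 135. HK1, a hexokinase that traps glucose as glucose 6-phosphate, had 1478 with siCont, 2185 with siPF and 1994 with siB7-H3, which is 1.48 and 1.35 times siCont and gave log2 differences of 0.56 and 0.43. HK2, the insulin-regulated and hypoxia-inducible form, had 1766, 1432 and 1912, differences of -0.30 and 0.11, and its 2 other probe sets gave -0.16 and -0.02 in siPF and -0.05 and 0.39 in siB7-H3. HK1 was thus higher in both knockdowns and HK2 lowest in siPF. PFKFB3 makes fructose 2,6-bisphosphate, the strongest activator of phosphofructokinase. It had 1714 with siCont, 1106 with siPF and 1169 with siB7-H3, differences of -0.63 and -0.55, so the siCont array stood above both knockdown arrays. HK1 and PFKFB3 were read by 1 probe set each. PFKFB4, the relative of PFKFB3, had 333, 416 and 381, differences of 0.32 and 0.19.

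The remaining genes of the upper pathway lay within 0.46 of siCont at the probe sets used. SLC2A1 and SLC2A3, the glucose transporters GLUT1 and GLUT3, had differences of -0.12 and 0.07 in siPF and 0.12 and 0.46 in siB7-H3. SLC2A3 had 1134 with siCont, 1187 with siPF and 1558 with siB7-H3. Its other probe sets gave -0.06 and 0.41 in siPF and 0.18 and 0.43 in siB7-H3. A dim SLC2A1 probe set had 96.7, 13.7 and 72.9, differences of -2.82 and -0.41. The phosphofructokinases PFKL, PFKM and PFKP, of liver, muscle and platelet type, had 0.17, 0.17 and -0.09 in siPF and -0.25, 0.18 and -0.16 in siB7-H3, and GPI, the isomerase before them, had 0.03 and -0.07. PDK1, which holds pyruvate back from the mitochondrion, had 760, 775 and 670, differences of 0.03 and -0.18.

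The muscle forms of the enzymes differed from siCont by unequal amounts. PFKM had 2679 with siCont, 3011 with siPF and 3035 with siB7-H3. ENO3, the muscle enolase, had 3778, 3741 and 3651, differences of -0.01 and -0.05. PGAM2, the muscle phosphoglycerate mutase, was dim, at 20.5, 8.30 and 4.89, so that its differences of -1.30 and -2.07 rest on values in a range where the dim genes scatter widely. Its widely expressed relative PGAM1 had 11764, 11816 and 11717. ALDOC, the brain aldolase and the other dim member, had 47.6, 84.3 and 76.0. The member next above the level limit was ANKRD37, with a highest value of 303.

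The lower pathway was bright, and on the deposited scale its values were slightly above siCont in most cases, though the sign did not hold under every scaling. GAPDH had 28784 with siCont, 35760 with siPF and 33881 with siB7-H3, ALDOA 15231, 18798 and 17664, and LDHB 24374, 29636 and 29308, which gave log2 differences of 0.28 to 0.31 in siPF and 0.21 to 0.27 in siB7-H3. LDHA, the form that favours lactate, had 20644, 23067 and 23866, differences of 0.16 and 0.21. TPI1, PGK1, PGAM1 and ENO1 lay between 0.0064 and 0.10 in siPF and between -0.11 and 0.13 in siB7-H3, and PKM, at 7672, 7204 and 7752, had -0.09 and 0.01. ENO2, the neuronal enolase, had 614, 699 and 543, differences of 0.19 and -0.18. On the deposited scale the siCont array was the lowest of the 3 for GAPDH, ALDOA, LDHA, LDHB, PGK1 and ENO1. Dimmer probe sets of some of these genes went the other way, with -0.41 in siPF and -0.30 in siB7-H3 for ALDOA, -0.63 and -0.37 for PGK1, and -0.44 and 0.21 for TPI1. A dimmer ENO1 probe set had 196, 223 and 99.0, differences of 0.19 and -0.98, and the dimmer one of PKM gave 0.16 and 0.57. Brighter probe sets also differed. Another TPI1 probe set had 15082, 19011 and 17424, differences of 0.33 and 0.21. PGK1 probe sets at 5105 and 4330 in siCont gave -0.13 and -0.11 in siPF and 0.06 and -0.03 in siB7-H3, and that at 8443 gave 0.05 and 0.0095.

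On each knockdown array, taken separately, most bright genes were above siCont, and so were most probe sets of control transcripts that the cells do not make. Over the 550 genes of mean level 8000 or more the median difference was 0.08 in siPF and 0.09 in siB7-H3, and for the 9 members among them, HIF1A and 8 glycolysis genes, it was 0.16 in both. The 18 hybridization control probe sets, which read bacterial and phage transcripts added to each sample, had medians of 0.23 and 0.23, and 18 and 17 of them were above siCont. With quantile normalization the median of the 9 members was -0.0079 in siPF and 0.03 in siB7-H3, and GAPDH had -0.0079 and -0.01, whereas ALDOA kept 0.22 and 0.12. Under it 11 and 12 of the 24 glycolysis genes were above siCont, in place of 17 and 14 as deposited. In siPF the sign turned for 6 of the 8 bright glycolysis genes under this scaling, and in siB7-H3 for GAPDH and ENO1, 2 of the 8. No direction is given for the group, and the part of array brightness in their values was not tested.

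**Figure D3:**
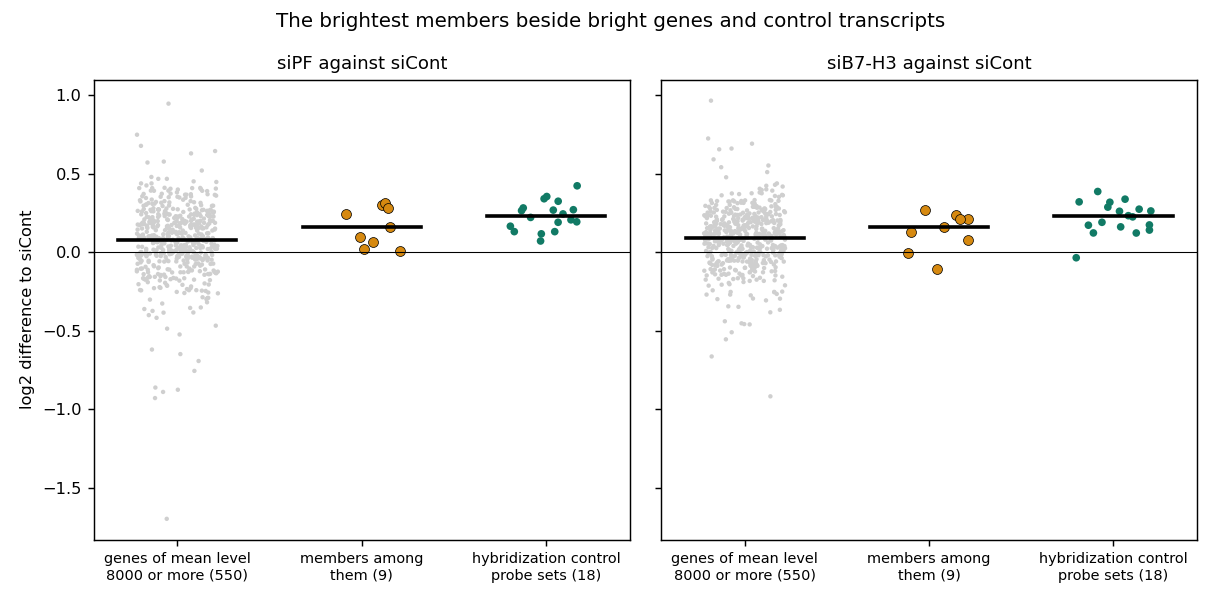
Log2 difference to siCont (vertical axis) in siPF (left) and siB7-H3 (right) of the 550 genes of mean level 8000 or more, of the 9 members among them and of 18 probe sets for added control transcripts, 1 point each, with black bars at the medians. The members' medians of 0.16 lie between those of all bright genes (0.08 and 0.09) and those of the control transcripts (0.23 in both).

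**Figure D4:**
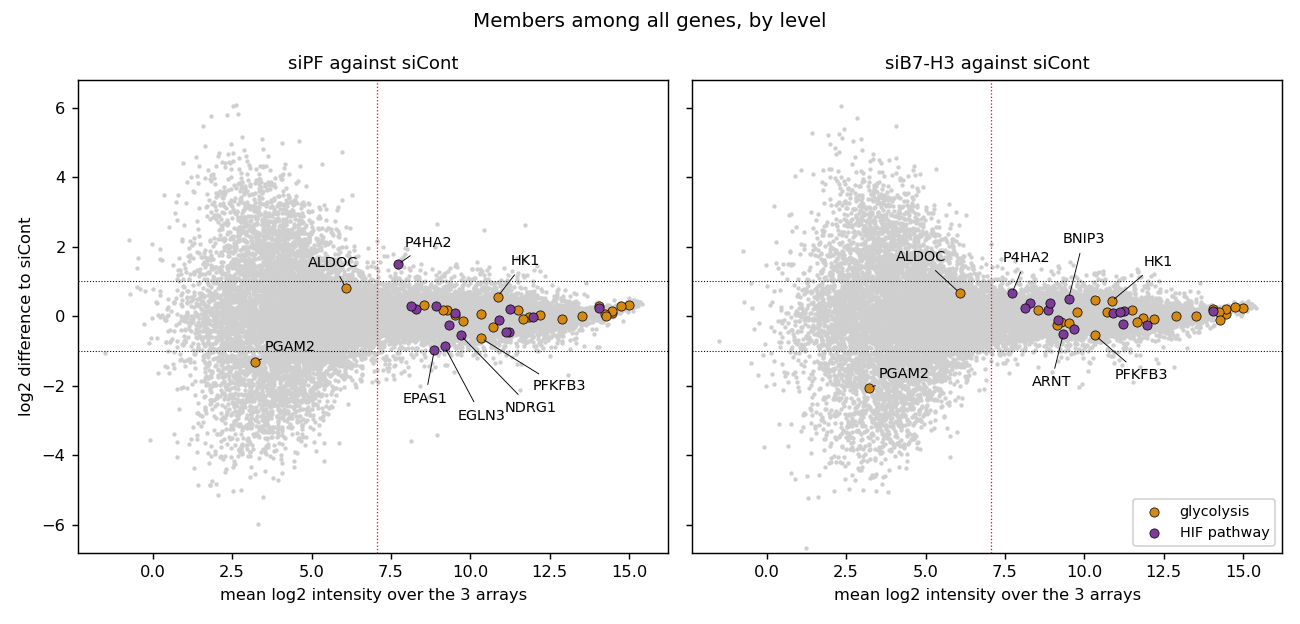
Log2 difference to siCont (vertical axis) against the mean log2 intensity over the 3 arrays (horizontal axis) for all 19775 genes (grey), glycolysis members (orange) and HIF pathway members (purple). Dotted lines mark 2-fold and, in red, an intensity of 135. Of the 39 members, 9 lie at a mean level of 8000 or more, where the scatter of all genes is narrowest, and PGAM2 and ALDOC lie in the wide scatter of dim ones.

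Of 38 measured HIF regulators and targets that are not members, 30 reached 135. CXCR4, a chemokine receptor and known HIF target, alone among these passed 2-fold, in siPF, and had 947, 436 and 732. The authors describe CXCR4 as regulated by PAX3-FOXO1 too. At the lower limit 4 of the 30 were higher and 1 was lower in siPF, where 8.2% and 6.61% of all genes at this level were, and 1 was higher and 2 were lower in siB7-H3, where 6.24% and 5.54% were. HMOX1, the heme oxygenase of the stress response, was on the higher side in both, at 785, 1451 and 1393. PLOD2, a collagen lysyl hydroxylase, had 1163, 1183 and 652, so that siB7-H3 alone was low. Of 20 other glycolysis and branch enzymes that reached 135, none was past 2-fold. Of all genes at this level 1.4% were higher by over 2-fold and 1.16% lower in siPF, and 0.868% and 0.821% in siB7-H3. At the lower limit 1 of the 20 was higher (PGAM5) and 1 lower (BPGM) in siPF, beside 8.2% and 6.61%. In siB7-H3 none was higher and 1 was lower (GPD2), beside 6.24% and 5.54%. PGAM5 had 470, 722 and 630, and BPGM, which makes 2,3-bisphosphoglycerate, had 545, 327 and 389. GPD2, the mitochondrial glycerol phosphate dehydrogenase, had 1288, 1266 and 701, again low in siB7-H3 alone. The 6 measured enzymes of the pentose phosphate branch lay between -0.31 and 0.30.
Of 19 measured genes of pyruvate dehydrogenase and the citric acid cycle, none was past 2-fold and none was past the lower limit downward. Of all genes at this level 6.61% in siPF and 5.54% in siB7-H3 were past the lower limit downward. Past 2-fold, 1.4% were higher and 1.16% lower in siPF, and 0.868% and 0.821% in siB7-H3. Nothing particular to the 19 is read from these counts. IDH3A, SUCLG1 and SDHA, 3 of the 19, were past it upward in siPF, where 8.2% of all genes at this level were, and IDH3A and SUCLG1 in siB7-H3, where 6.24% were. SUCLG1, a subunit of succinyl-CoA ligase, had 4806 with siCont, 7876 with siPF and 8195 with siB7-H3, log2 differences of 0.71 and 0.77, and IDH3A had 1913, 2907 and 3011. The median of the 19 was 0.02 in siPF and 0.03 in siB7-H3. Genes named here beside CXCR4 were picked after their values were seen.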

How the data were processed

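Total RNA of Rh-30 cells was read on 3 Affymetrix U133 Plus 2.0 microarrays, 1 per siRNA. The values deposited are linear intensities that the authors made with Affymetrix Expression Console 1.4.1, and the summarization method is not given in the sources used here. Groups were taken from the sample titles.

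Intensities were taken to log2 with no pseudocount. Of 54675 probe sets, 41091 were named with 1 gene by the platform annotation, with symbols updated through gene IDs, and a gene was represented by its probe set of highest mean log2 intensity. All genes were processed together. A log2 difference of 1 or more in size counted as 2-fold, and 0.5 was also used. Members with an absolute difference of at least 0.5 and an intensity of at least 135 on any array, with their isoforms, are given in full, VEGFA and the remaining members by choice after their values were seen. The members, lists and limits were chosen with earlier results of these data known. The number of arrays limits the precision, and no test was made. The alternatives were other choices of probe set, 2 scalings, a floor or filter at 135, the GAPDH control probe sets and the mean of a list. Python 3.11.15, numpy 2.4.6, pandas 2.3.3 and matplotlib 3.10.9 were used. The choice of a probe set per gene, the differences and the quantile normalization were tried on simulated arrays first, and the remaining steps were not.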

Additional observations from a re-analysis of the deposited data

How the results depend on the processing

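With 1 array per condition no replicate could be left out. No paired analysis was possible because each condition has 1 array. A list median was taken as moved when it shifted by more than the SD between probe sets of 1 gene divided by the square root of the number of genes, a count when it changed by more than 1.5 times, and a single gene when it shifted by more than that SD. Of 52 alternative values of the list medians and of the counts of members past 2-fold, 35 stayed within these limits and 17 moved. Within them, 3 members in place of 2 were past 2-fold in siPF with the median over all probe sets of a gene (SLC2A1 was added) and with both scalings (EPAS1 was added). When all probe sets of each gene were summarised by their median, glycolysis had 0.14 in siPF and 0.18 in siB7-H3, the HIF pathway 0.19 and -0.0115, and 3 members were past 2-fold in siB7-H3. Without probe sets that can bind several transcripts, which left 25 members, glycolysis had -0.0526 in siPF and -0.0172 in siB7-H3, the HIF pathway 0.20 in siPF, and 4 and 2 members were past 2-fold. The 4 in siPF were SLC2A1, PGAM2, P4HA1 and P4HA2, and the 2 in siB7-H3 were VHL and PGAM2. SLC2A1, P4HA1 and VHL were read there by dim probe sets. Quantile normalization gave -0.0044 and -0.0013 for glycolysis in siPF and siB7-H3, and a mean taken instead of the median gave -0.0127 in siB7-H3. With a floor at 135, or with a mean level of at least 135, 1 member was past 2-fold in siPF and 0 in siB7-H3, since PGAM2 no longer counted. Among 106 values of the 7 members past 0.5 under other settings, 102 stayed within the limit, and among 22 values at their other probe sets 7 did. Most of the other settings kept the probe set of these members and changed its values little or not at all. The 102 could thus hardly have moved, and stability is not read from them. Other probe sets of the 7 had the opposite sign for 4 of 11 values in siPF and 5 of 11 in siB7-H3, all of EPAS1, ARNT or P4HA2. Differences in sign were not confined to the 7. Over all members, 19 had at least 2 probe sets that reached 135, and these were of 1 sign for 10 members in siPF and 9 in siB7-H3. At dim ones, P4HA2 reversed to -0.26 in siPF and -4.40 in siB7-H3, and ARNT to 2.04 and 2.06. EPAS1 reversed to 4.15 in siPF at 1 dim probe set and to -1.97 in siB7-H3 at another. ARNT also turned at probe sets that reached 135, to 0.16 in siPF and to 0.0061 and 0.27 in siB7-H3. Cross-reading between related transcripts could not be checked, and the x_at probe sets used for GAPDH, ALDOA, LDHB and PFKL can read several. The setting without probe sets that can bind several transcripts also left out those ending in s_at. EGLN3, PFKFB3 and NDRG1 were read by such probe sets alone and had no value in it.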
